A study of Mus musculus with 16 samples.

Results

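ADAM proteases (a disintegrin and metalloproteinase) were examined in blood and in a tumour fraction of mice that carried a subcutaneous hepatoma. The 8 genes are Adam8, Adamdec1, Adam9, Adam10, Adam15, Adam17, Adam19 and Adamts1. They were chosen from their ratio and signal in these same samples, so their values are given as a description, with no test. They stand among 16535 genes with a named probe, and 13 of 41174 probes measured them. All 8 passed the filter on dim probes, although in blood Adam15, Adam10 and Adamts1 were well above background on only 3, 0 and 0 of 8 arrays in Cy5.

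The samples fall into 2 groups of 8, each compared with a reference. The first group is the tumour fraction, for which tumours were mashed and density gradient centrifugation was used to enrich infiltrating inflammatory cells; it is called infiltrating cells below. The second is whole blood placed in an RNA preservative. All were collected 10 days after cells of the mouse hepatoma line Hepa1-6 had been injected under the skin. The inoculum was 10 × 10⁶ cells for every sample. The reference is blood RNA of C57Bl/6 mice that received no treatment. The labels give C57Bl/6 as strain and female as sex throughout, and call the tumour-bearing mice athymic in the treatment text, a term for mice that lack a thymus and most T cells. Sample RNA was labelled with Cy5 and the reference with Cy3 on every array. The groups were extracted with different RNA kits and lay on different slides, so that tissue, kit and slide cannot be told apart.

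The fraction also held hepatoma RNA. Afp, the oncofetal albumin-like protein of hepatoma cells, had processed Cy5 signals of 197300 to 378500 units in infiltrating cells, against 406.8 to 672.7 in blood. The summed signal of 7 hepatoma and hepatocyte markers was 473900 to 866000 units in infiltrating cells, against 622.6 to 1779 in blood, and that of 7 fibroblast markers was 180000 to 266700, against 583.5 to 3154. In infiltrating cells nearly all of the fibroblast sum was Dcn (176100 to 257500 units). The 9 macrophage markers summed to 195300 to 290800 units in infiltrating cells and 197800 to 279500 in blood. Most of that sum was Lyz2 (median 159200 in infiltrating cells and 238100 in blood), and the other 8 were brighter in every infiltrating-cell sample than in any blood sample. The 8 neutrophil markers summed to 26260 to 108100 units in infiltrating cells, against 275600 to 603100 in blood, where S100a9 had most of the sum (median 37300 in infiltrating cells and 317300 in blood). Of the 8, Mmp9 was brighter in the fraction (4428 to 12560 units, against 1226 to 2677 in blood), and Ltf and Retnlg overlapped between the groups. In infiltrating cells 51.8% to 66.3% of probes lay well above background in Cy5, in blood 25.3% to 36.8%. Log2 ratios correlated at 0.80 to 0.98 between infiltrating-cell arrays and 0.56 to 0.83 between blood arrays over 26510 probes, and at −0.31 to −0.08 across the groups. Directions are taken from the dyes that the labels name.

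ADAMs are mostly membrane-anchored zinc proteases. Their metalloprotease domain cuts the extracellular part off cytokines, receptors and adhesion molecules, a process called shedding, and their disintegrin domain can bind integrins. Most are made with an inhibitory prodomain that proprotein convertases such as furin remove. ADAM17 releases TNF and EGF receptor ligands, ADAM10 cuts Notch and many adhesion proteins, ADAM8 is typical of myeloid cells, and the secreted ADAMDEC1 is typical of macrophages and dendritic cells. ADAMTS proteases are secreted and cut matrix proteoglycans.

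The region upstream of the transcription start is shown for Adam8 and Adamts1, which were more than 2-fold higher in infiltrating cells than in the reference, and for Adam10, which was not. Each line is the 250 bases before a start, 5′ to 3′ on the gene's strand, from RefSeq on build GRCm38.p6. Capitals mark matches on either strand to the TATA box TATAAA, the CCAAT box, the GC box GGGCGG, the AP-1 site TGANTCA or the E-box CACGTG.
Adam8: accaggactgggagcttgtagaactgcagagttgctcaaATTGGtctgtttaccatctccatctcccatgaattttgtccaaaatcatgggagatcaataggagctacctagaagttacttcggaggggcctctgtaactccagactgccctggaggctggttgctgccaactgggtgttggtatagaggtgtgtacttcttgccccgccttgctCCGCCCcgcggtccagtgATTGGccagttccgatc
Adamts1: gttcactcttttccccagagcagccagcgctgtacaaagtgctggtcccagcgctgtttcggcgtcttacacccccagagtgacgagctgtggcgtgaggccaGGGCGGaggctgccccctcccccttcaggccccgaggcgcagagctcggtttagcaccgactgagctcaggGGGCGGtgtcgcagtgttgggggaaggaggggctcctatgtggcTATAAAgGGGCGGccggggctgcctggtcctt
Adam10: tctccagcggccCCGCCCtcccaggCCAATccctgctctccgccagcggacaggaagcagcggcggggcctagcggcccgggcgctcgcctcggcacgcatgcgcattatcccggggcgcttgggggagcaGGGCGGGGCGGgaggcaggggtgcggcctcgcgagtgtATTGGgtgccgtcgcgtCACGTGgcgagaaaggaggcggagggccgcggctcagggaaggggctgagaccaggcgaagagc
These windows lie at chr7:139992563-139992812 (minus strand) for Adam8, chr16:85803114-85803363 (minus strand) for Adamts1 and chr9:70678732-70678981 (plus strand) for Adam10. Adam8 has 2 CCAAT boxes and 1 GC box, 52.8% G and C and 6 CpG. Adamts1 has TATAAA from 32 to 27 bases before the start, 3 GC boxes, 65.6% G and C and 15 CpG. Adam10 has 3 GC boxes, 2 of which overlap by 1 base, 2 CCAAT boxes and 1 E-box, with 74.0% G and C and 29 CpG. Among 32851 such windows in the table the median was 52.4% G and C and 6 CpG, and 12.4% held the TATA box, 33.8% the CCAAT box, 32.7% the GC box, 6.75% the AP-1 site and 6.02% the E-box. Of the 8 genes, 6 matched an entry of the table.

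Adam8, a protease of neutrophils and macrophages that can cut cell adhesion molecules and activate itself, stood above the reference in both groups. Its processed Cy5 signal was 51510 to 120300 units in infiltrating cells (median 65470), against 10200 to 19100 in blood (median 11575). Its log2 ratio to the reference after loess was 2.01 to 2.46 in infiltrating cells (median 2.18), against 0.94 to 1.89 in blood (median 1.31). All 16 samples lay above 0, and the groups did not overlap on either scale. The mean was 2.20 ± 0.06 in infiltrating cells and 1.37 ± 0.09 in blood (limma SE, n = 8 each), 4.61-fold and 2.58-fold the reference, and the groups differed by 0.84 ± 0.12. In blood it was highest in samples 890 (1.89) and 898 (1.82) and lowest in 896 (0.94).

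Neutrophil and macrophage markers are given here beside Adam8. Of 8 neutrophil markers tested, 0 rose and 4 fell in infiltrating cells (median log2 −1.02), and 4 rose and 0 fell in blood (median 1.01). S100a8, a neutrophil alarmin, had 1394 to 5383 units of Cy5 in infiltrating cells, against 30450 to 67770 in blood. The Cy5 signal of Mmp9, on the same list, went the other way, with 4428 to 12560 units in infiltrating cells, against 1226 to 2677 in blood. Its log2 ratio did not, with a mean of −0.55 in infiltrating cells and 0.79 in blood. Of 9 macrophage markers 5 rose and 1 fell in infiltrating cells, with a median of 1.02, and none was called in blood, with a median of −0.04. Of all genes, 9.3% were called higher and 10.1% lower in infiltrating cells, and 0.504% and 0.244% in blood. The part of cell composition in the Adam8 ratios was not tested; in bulk RNA, more cells of a type and more RNA per cell cannot be told apart.

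Adamdec1, a secreted member with a shortened disintegrin region, had the largest ratio of the 8 in infiltrating cells and a mean below the reference in blood. Its processed Cy5 signal was 11600 to 60590 units in infiltrating cells (median 13460), against 37.32 to 258.1 in blood (median 122.5), where 4 of 8 arrays were well above background. The log2 ratio was 1.87 to 4.202 in infiltrating cells (median 3.42), against −0.62 to 0.20 in blood (median −0.20). All 8 infiltrating-cell samples were above every blood sample on both scales, and blood sample 893 alone was above 0 in its group. The means were 3.28 ± 0.21 in infiltrating cells and −0.20 ± 0.06 in blood (n = 8 each), a difference of 3.48 ± 0.24. Sample 896 had the highest signal of the infiltrating cells. After loess it also had the highest ratio, and sample 897 the lowest, 1.87, with 898 next at 2.78. By processed signals 897 was not lowest (12060 units of Cy5 and 837.6 of Cy3, against 11600 and 1033 in 891). Nor was the ratio of 896 highest by these signals (60590 and 2739, against 11610 and 404.5 in 893). Mrc1 and C1qc, both on the macrophage list, were also bright in the fraction and dim in blood. Mrc1, the mannose receptor, had 3175 to 12820 units of Cy5 in infiltrating cells, against 25.01 to 32.42 in blood, and C1qc, a chain of complement C1q, had 27730 to 53600, against 20.54 to 49.66. Lyz2, on the same list, was brighter in blood (194200 to 274700, against 115700 to 188400). Foxa2 of the hepatoma list (12300 to 24140, against 21.82 to 37.51 in blood) and Dcn of the fibroblast list (176100 to 257500, against 63.2 to 1425) were also brighter in the fraction. The cells that Adamdec1 came from were not tested.

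**Figure D1:**
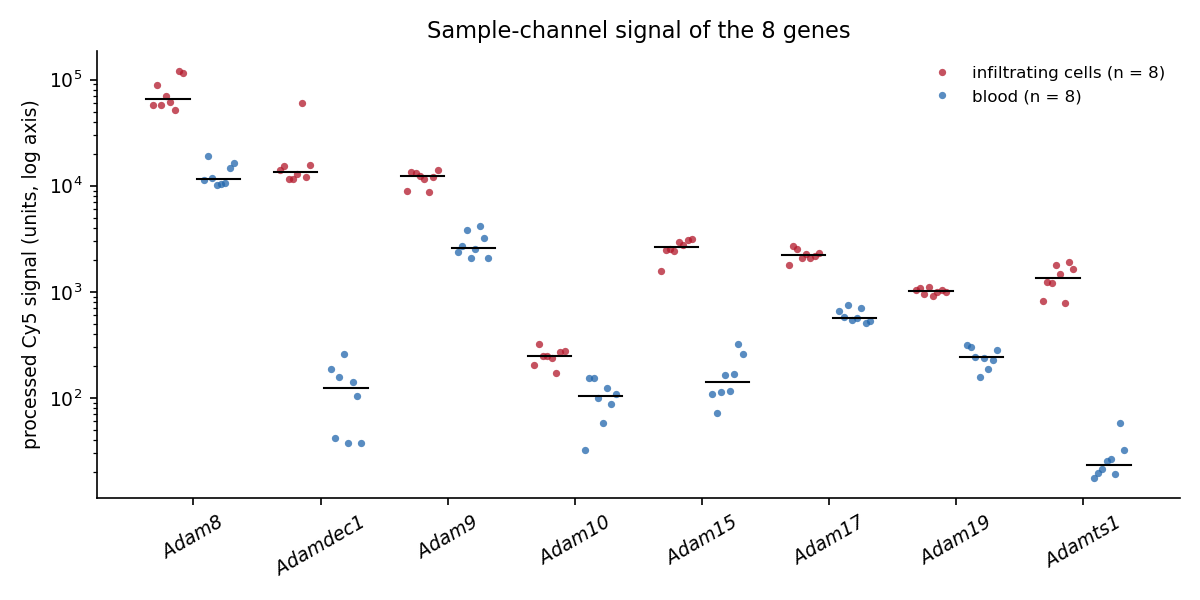
Processed Cy5 signal in arbitrary units on a log axis for the 8 genes, with 1 point per sample, infiltrating cells in red at the left of each pair and blood in blue, and a line at each median. Each gene is shown by its brightest probe. By that probe every gene was brighter in all 8 infiltrating-cell samples than in any blood sample, and 1 Adamdec1 point, sample 896, stands at 60590 units.

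By the brightest probe of each of the 8 genes, the processed Cy5 signals of the groups did not overlap, and infiltrating cells were higher. A dimmer probe of Adam19 (A_52_P396459) and the dimmer probe of Adamts1 (A_52_P213932) did overlap. Of the 12312 genes tested, 79% did not overlap and 64.4% were higher in infiltrating cells on this scale, so signals were brighter in the fraction across the array. Fold differences of this signal are therefore given with each array scaled to its 75th percentile as well. Unscaled, infiltrating cells exceeded blood by 2.54 (Adam8), 2.09 (Adam19), 2.07 (Adam9) and 1.90 (Adam17) on the log2 scale. Scaled, the differences were 1.01 for Adam8, 0.56 for Adam19, 0.54 for Adam9 and 0.37 for Adam17. These 4 were well above background in blood on 8 of 8 arrays, or 7 of 8 for Adam19. Adamdec1 (7.40 unscaled, 5.87 scaled) and Adam15 (4.12 unscaled, 2.59 scaled) were so on 4 and 3 of 8 blood arrays, and the size of their differences rests partly on signals not above background. Adamts1 and Adam10 were so on no blood array, and only bounds are given for them.

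Adam9, a widely expressed sheddase that cuts EGF receptor ligands, was well above background on all 16 arrays. Its processed Cy5 signal was 8787 to 14010 units in infiltrating cells (median 12250), against 2077 to 4156 in blood (median 2593.5). The log2 ratio was 0.81 to 1.35 in infiltrating cells (median 1.15), against −0.23 to 0.56 in blood (median 0.17). All infiltrating-cell samples were above all blood samples, while blood lay on both sides of 0, with 6 of 8 above it. The means were 1.13 ± 0.07 and 0.14 ± 0.07 (n = 8 each), a difference of 0.98 ± 0.11, which is just under 2-fold. Centring on the median or on the spike-in controls put the blood mean of Adam9 below 0, at −0.51 and −0.49.

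Adamts1, a secreted protease that cuts versican and aggrecan, was well above background in Cy5 in the fraction alone, on 8 of 8 arrays. Its processed Cy5 signal was 784.9 to 1900 units in infiltrating cells (median 1339.5), against 17.56 to 57.66 in blood (median 23.42), where no array was well above background. Its normalised Cy5 mean in infiltrating cells was at least 3.30-fold that of blood. Such a bound sets the bright mean against the dim one, floored at the lowest signal well above background, each channel taken alone after normalisation between arrays, and it is open to dye bias. The log2 ratio to the reference was 0.42 to 1.52 in infiltrating cells (median 1.14, mean 1.08 ± 0.11, n = 8). After loess, samples 897 (0.42) and 898 (0.67) were lowest here, as for Adamdec1. By processed signals they were not lowest. Sample 897 had 1900 units of Cy5 and 319.3 of Cy3, and 898 had 1646 and 231.3, against 1791 and 435.7 in 893. The blood ratios, −0.06 to 0.13, divide 2 dim signals. A dimmer probe of Adamts1 (A_52_P213932) gave a mean of 0.09 in infiltrating cells, and it was well above background on 6 of 8 of those arrays in Cy5 and on none in Cy3.

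**Figure D2:**
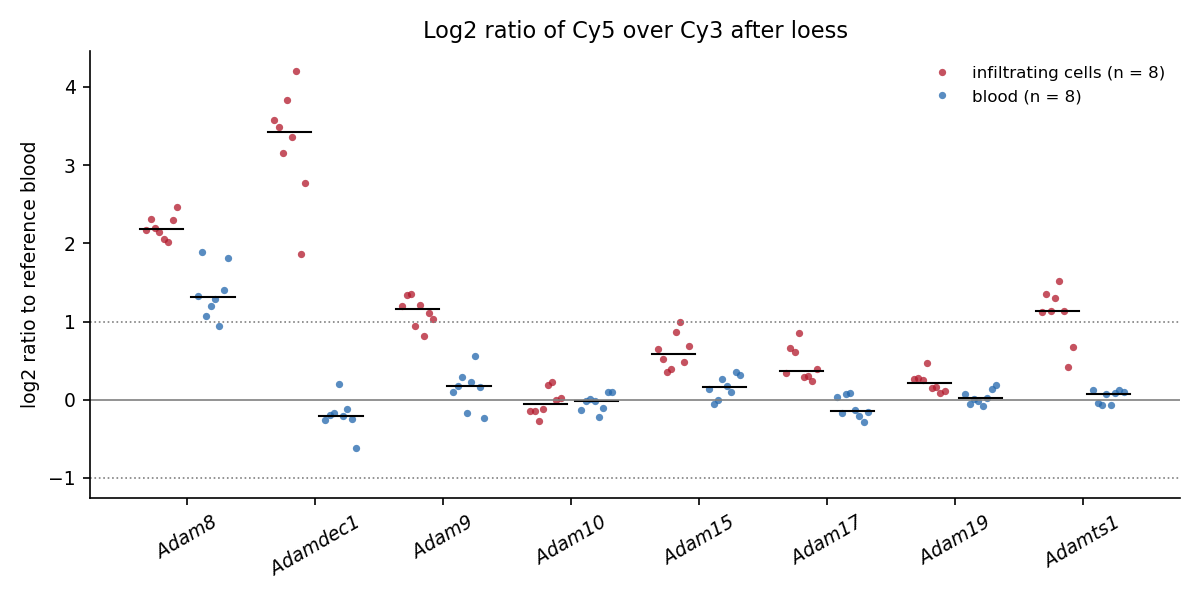
Log2 ratio of each sample to reference blood after loess for the 8 genes, with 1 point per sample, infiltrating cells in red at the left of each pair and blood in blue, and a line at each median. Dotted lines mark a 2-fold change; Adam8 lies above 0 in both groups, while Adamdec1, Adam9 and Adamts1 pass 1 at the median in infiltrating cells only.

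Adam17 and Adam10, the principal sheddases of leukocyte surface proteins, had small ratios. Adam17 had 1774 to 2689 units of processed Cy5 in infiltrating cells (median 2220), against 503.6 to 756.2 in blood (median 566.45). Its log2 ratio was 0.24 to 0.86 in infiltrating cells (median 0.36), against −0.29 to 0.08 in blood (median −0.14). The groups did not overlap, with means of 0.46 ± 0.07 and −0.09 ± 0.05 (n = 8 each). A second Adam17 probe (A_52_P337050) gave 0.59 in infiltrating cells and −0.02 in blood. In infiltrating cells Adam17 was 2.14 when arrays were centred on their median and 1.5 when centred on spike-in controls.

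Adam10, the Notch sheddase, had mean ratios near 0 in both groups. It had 172.8 to 325.2 units of processed Cy5 in infiltrating cells (median 247.55), against 32.57 to 152.5 in blood (median 103.09), where no array was well above background. The log2 ratio was −0.27 to 0.22 in infiltrating cells (median −0.06), against −0.21 to 0.11 in blood (median −0.02). The groups overlapped, 4 of 8 and 3 of 8 samples were above 0, and the means were −0.03 ± 0.06 and −0.03 ± 0.04 (n = 8 each). The bound on Cy5 in infiltrating cells over blood was at least 1.09-fold. The mean in infiltrating cells was 0.48 when arrays were centred on their median and −0.16 when centred on spike-in controls.

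Adam15 and Adam19, transmembrane members whose substrates include adhesion molecules and neuregulins, were under 2-fold in both groups in the main fit, but not under every setting. Adam15 had 1573 to 3157 units of processed Cy5 in infiltrating cells (median 2646.5), against 71.99 to 319.8 in blood (median 139.55, 3 of 8 arrays well above background). Its log2 ratio was 0.35 to 0.99 in infiltrating cells (median 0.58), against −0.05 to 0.36 in blood (median 0.16). The lowest infiltrating-cell sample lay just under the highest blood sample, and the means were 0.62 ± 0.08 and 0.16 ± 0.05 (n = 8 each). A second, dimmer Adam15 probe (A_52_P362670) gave 0.08 in infiltrating cells, so that the probes disagree. In infiltrating cells Adam15 was 2.37 when arrays were centred on their median and 1.73 when centred on spike-in controls. With background subtracted to a floor before loess it was 1.05.

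Adam19 had 904.9 to 1097 units of processed Cy5 in infiltrating cells (median 1017.5), against 157.8 to 313.9 in blood (median 240.1). The log2 ratio was 0.09 to 0.47 in infiltrating cells (median 0.21), against −0.08 to 0.19 in blood (median 0.02). The groups overlapped, with means of 0.22 ± 0.05 and 0.04 ± 0.04 (n = 8 each). Its 2 other probes gave 0.01 and −0.06 in infiltrating cells. With arrays centred on their median, Adam19 was more than 2-fold above the reference in infiltrating cells.

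Counted over the 8 genes, 4 were past both an adjusted p of 0.05 and 2-fold in infiltrating cells against the reference (Adamdec1, Adam8, Adam9 and Adamts1, all higher), where 19.4% of all 12312 genes were called, 9.3% higher and 10.1% lower. In blood 1 of 8 was past them (Adam8, higher), where 0.747% of all genes were called and 0.504% were higher. In infiltrating cells against blood 2 of 8 were past them (Adamdec1 and Adamts1, higher), where 23.8% of all genes were called, and Adam9 joined them without blood sample 891 or 896 or infiltrating-cell sample 893 or 896. Without infiltrating-cell sample 894 Adamts1 was no longer past them, at 0.98. The groups' log2 ratios did not overlap for 5 of 8 (Adam8, Adamdec1, Adam9, Adam17 and Adamts1), all with infiltrating cells higher, against 42.2% of all genes in either direction and 24.8% in this one. These counts follow from how the genes were chosen, and nothing is read from them. The median log2 value of the 8 was 0.85 in infiltrating cells, 0.04 in blood and 0.70 in the difference, and that of all genes was 0.04, −0.02 and 0.08.

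The reference channel was not equal on the 2 sets of arrays. Net Cy3 signal is the spot median minus its local background, and the labels give the same reference for all arrays. For Adam15 it was 100 to 157 units on infiltrating-cell arrays, against 20 to 29 on blood arrays, a 5.51-fold ratio of medians. For Adamts1 it was 23.5 to 56 units on infiltrating-cell arrays, against 7 to 13 on blood arrays (3.16-fold).

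Net Cy3 of the other 6 genes differed less between the sets. For Adamdec1 net Cy3 was 55 to 278.5 units on infiltrating-cell arrays, against 30 to 53 on blood arrays (2.82-fold). For Adam8 it was 1205 to 2190.5 units on infiltrating-cell arrays, against 719 to 955.5 on blood arrays (2.42-fold). The ratios of medians for the other genes were 1.89 (Adam19), 1.70 (Adam10), 1.38 (Adam9) and 1.36 (Adam17). Over 15331 probes well above background in Cy3 on all 16 arrays the median ratio was 1.39, with 90% of probes between 0.857 and 4.27. The 2 sets of arrays did not overlap in net Cy3 for 6 of the 8 genes (not for Adam9 and Adam10), where 46.3% of all genes did not overlap, 44.7% with infiltrating-cell arrays brighter and 1.64% with them dimmer.

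Infiltrating-cell sample 896, with the highest Adamdec1 signal in Cy5, also had its highest net Cy3, 278.5 units. Among the 3 genes well above background in both channels on all 16 arrays, the log2 ratio differed between the groups by 0.84 for Adam8, 0.98 for Adam9 and 0.56 for Adam17, and the scaled Cy5 signal by 1.01, 0.54 and 0.37 in the same order. Why the reference channel differed was not tested.

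**Figure D3:**
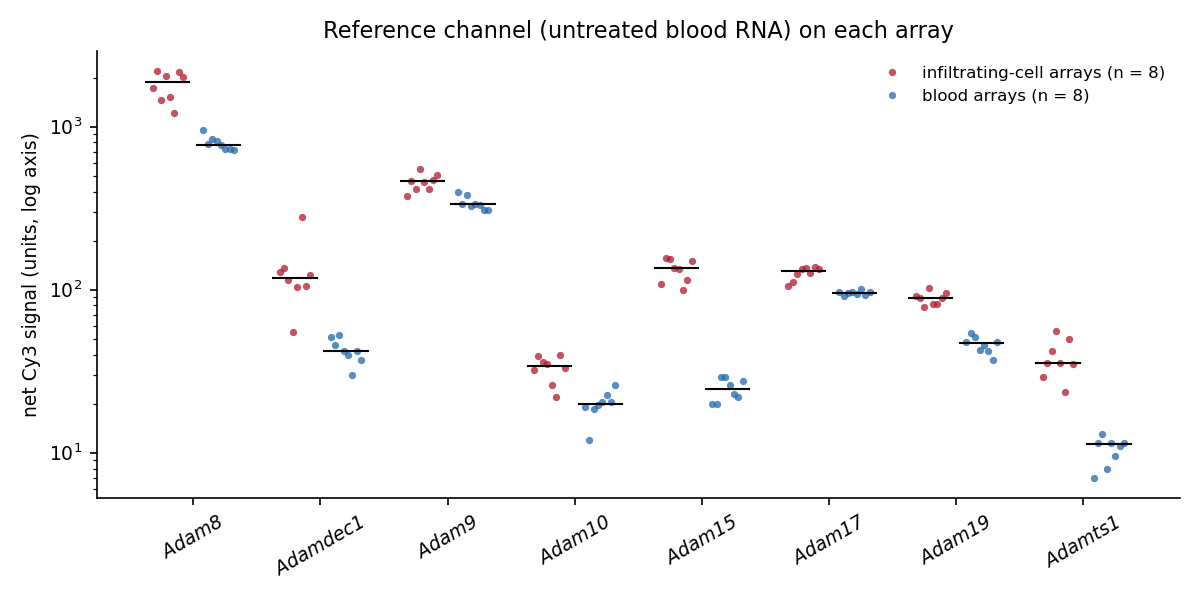
Net Cy3 signal of reference blood RNA in units on a log axis for the 8 genes, with 1 point per array, infiltrating-cell arrays in red at the left of each pair and blood arrays in blue, and a line at each median. Adam15 sits at 100 to 157 units on infiltrating-cell arrays and 20 to 29 on blood arrays, while Adam9 and Adam10 overlap.

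Values after loess are relative to the middle of their array at each intensity. The centrings below instead take a constant off each array and leave out loess. Genes therefore moved by unequal amounts between settings. With arrays centred on their median (median centring), the median over all genes became 1.201 in infiltrating cells, −0.16 in blood and 1.45 between the groups. With arrays centred on spike-in control spots (spike-in centring), it became 0.56 in infiltrating cells, −0.14 in blood and 0.79 between the groups. In the deposited ratios it was 0.17 in infiltrating cells, −0.11 in blood and 0.42 between the groups. Adam8 in infiltrating cells was then 4.42, 3.78 and 2.25, in that order of settings, and in blood 0.73, 0.76 and 1.51, so its blood mean was above 0 under all 3 and under 2-fold with both centrings. Adamdec1 in infiltrating cells was 5.33, 4.69 and 4.01. Adamts1 in infiltrating cells was 2.48, 1.84 and 2.53, and 0.95 with no background correction.

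**Figure D4:**
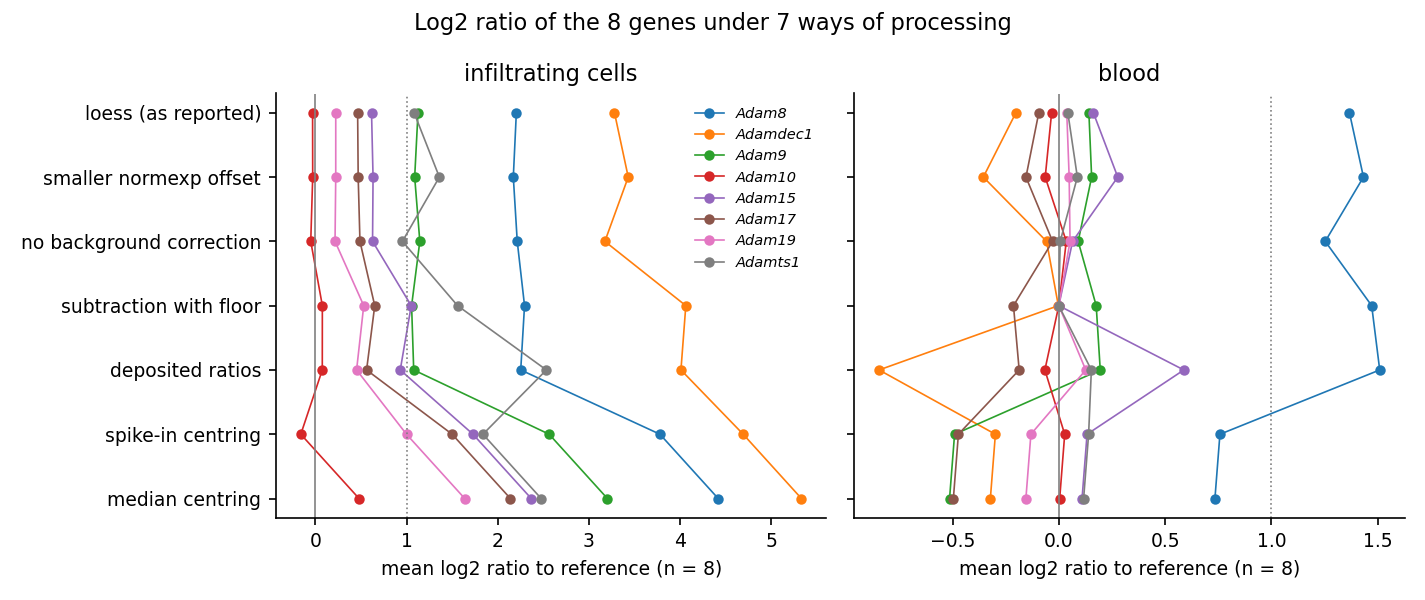
Mean log2 ratio to the reference (n = 8 samples) of the 8 genes under 7 ways of processing, infiltrating cells at the left and blood at the right. Adam8 and Adamdec1 stay the highest pair in infiltrating cells except for the deposited ratios, where Adamts1 (2.53) lies above Adam8 (2.25), and in blood Adam8 stays highest under all 7.

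Within a group, the 8 genes did not vary as one. Pairwise correlations of their log2 ratios ran from −0.66 to 0.89 over the 8 infiltrating-cell arrays, with Adam17 and Adam19 highest, and from −0.63 to 0.74 over the 8 blood arrays, as a description of 28 pairs that share arrays and normalisation. The genes closest to Adam8 among 12283 were Rab11a (r = 0.99), Mindy3, Rabac1, Coa5 and Arntl over the infiltrating-cell arrays, and Xkr8 (r = 0.96), Il1b, Olfr508, Cmas and Anxa2 over the blood arrays. Those closest to Adamdec1 were Slc19a2 (r = 0.96), Tmed6, Nsl1, Aldh9a1 and Pttg1 over the infiltrating-cell arrays, and Iqgap2 (r = 0.97), Tmprss4, Thap12, Foxo3 and Cmtm4 over the blood arrays. No gene stood among the closest 5 in both groups. Over all 16 arrays the groups stood apart for both genes, so no pooled value is given.

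Regulators, inhibitors and substrates of these proteases were taken from 10 lists with 152 genes, of which 105 were tested. Against the reference, 18 rose, 12 fell and 75 were not called in infiltrating cells (median 0.12), and 4 rose, 0 fell and 101 were not called in blood (median 0.02). Between infiltrating cells and blood 16 were higher, 11 lower and 78 not called (median 0.10). The corresponding shares of all genes called were 19.4%, 0.747% and 23.8%. Counts and p-values below are from limma with Benjamini-Hochberg adjustment, and values are log2 with SE. The lists were chosen with earlier results of these data known, so these p-values are not an independent test.

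Among partners that carry ADAM10 and ADAM17 to the surface or process them, 1 of 10 rose and 2 fell in infiltrating cells (median −0.07), and 1 rose and 0 fell in blood (median 0.10). Furin, the proprotein convertase, rose by 1.08 ± 0.07 in infiltrating cells (adjusted p = 3.8e-07). Tspan33, a tetraspanin that accompanies ADAM10, fell by 4.15 ± 0.07 (adjusted p = 8.9e-11). It had 2961 to 3605 units of Cy5 in infiltrating cells, against 85020 to 145600 in blood, in company with erythroid markers, whose summed signal was 120300 to 237700 in infiltrating cells, against 2670000 to 4626000 in blood; their part in it was not tested. Tspan17, of the same tetraspanin group, fell by 1.03 ± 0.07 in infiltrating cells (adjusted p = 8.0e-07) but was 1.07 under median and 0.43 under spike-in centring. In blood it rose by 1.09 ± 0.05 (adjusted p = 9.4e-10). Tspan14 was −0.69 in infiltrating cells and 0.26 in blood, and Rhbdf2, the iRhom that escorts ADAM17, was 0.68 in infiltrating cells and −0.18 in blood; neither was called. In blood Tspan33 was 0.99 ± 0.04, just under the fold threshold.

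Of 7 protease inhibitors 2 rose and 0 fell in infiltrating cells (median 0.09), and none was called in blood (median 0.14). Timp3, the main tissue inhibitor of ADAM17, rose by 1.44 ± 0.11 (adjusted p = 2.1e-06), and Timp2 by 2.53 ± 0.09 (adjusted p = 5.1e-09). Timp3 had 2597 to 6045 units of Cy5 in infiltrating cells, against 27.15 to 367.3 in blood. Timp1 was 0.20 in infiltrating cells and 0.53 in blood and was not called.

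EGF receptor ligands and receptors had 2 of 8 higher and 0 lower in infiltrating cells (median 0.39), and none called in blood (median 0.03). Egfr, the receptor itself, rose by 2.80 ± 0.16 (adjusted p = 2.2e-07), and Areg, the ligand amphiregulin released by ADAM17, by 1.92 ± 0.15 (adjusted p = 2.2e-06). Neither was well above background in Cy5 on any of the 8 blood arrays, and infiltrating cells were at least 16.1-fold higher than blood for Egfr and at least 6.30-fold for Areg. The reference in Cy3 was well above background for both on 8 infiltrating-cell arrays and on 0 blood arrays.

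Shed leukocyte and cytokine substrates had 9 of 28 higher and 2 lower in infiltrating cells (median 0.41), and 1 higher and 0 lower in blood (median −0.03). Vcam1, an adhesion molecule, rose by 2.87 ± 0.27 (adjusted p = 1.0e-05). Cx3cl1, the transmembrane chemokine shed by ADAM10 and ADAM17, rose by 2.76 ± 0.10 (adjusted p = 7.4e-09), and Kitl, stem cell factor, by 2.61 ± 0.24 (adjusted p = 7.7e-06). In Cy5 infiltrating cells were at least 36.6-fold (Cx3cl1), 10.8-fold (Vcam1) and 8.51-fold (Kitl) above blood, where these were not well above background on any array. Cxcl16, the second transmembrane chemokine, was 0.87 ± 0.05 and not called at 2-fold, with a bound of at least 11.9-fold over blood in Cy5. In blood Cx3cl1 was −0.03 and Cxcl16 0.04, and neither was called. These blood ratios divide dim signals. Cy3 was well above background for both genes on 8 infiltrating-cell arrays and on 0 blood arrays. For Vcam1 it was so on 5 infiltrating-cell and 0 blood arrays, and for Kitl on 7 and 0.

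The other 6 genes of this list that rose in infiltrating cells were Axl (1.83), Tnfrsf1a (1.55), Trem2 (1.498), Alcam (1.38), Havcr2 (1.20) and Fasl (1.03), of which Axl, Alcam, Havcr2 and Fasl were named after their values were seen. Fcer2a, the B cell IgE receptor CD23 that ADAM10 sheds, fell by 3.46 ± 0.33 (adjusted p = 1.0e-05). All 5 tested B cell markers fell as well in infiltrating cells, where 10.1% of all genes were called lower. Their summed signals were 6972 to 11640 units in infiltrating cells, against 39430 to 75230 in blood. The part of B cells in the Fcer2a ratio was not tested. Il6ra was −0.21 in infiltrating cells and 0.10 in blood, and neither was called. Tnf was 0.05 in infiltrating cells and 0.00 in blood and was not called. It had 420.8 to 1262 units of Cy5 in infiltrating cells, against 26.73 to 78.63 in blood. On blood arrays Tnf was well above background on 1 of 8 in Cy5 and on 2 in Cy3. Its blood ratio thus divides 2 dim signals. On infiltrating-cell arrays the reference was well above background for Tnf on 8, so the 2 ratios rest on unequal reference readings. Il1r2, the decoy receptor of interleukin 1, rose by 1.27 ± 0.10 in blood (adjusted p = 1.4e-07). Trem2, a macrophage lipid receptor (1.70 ± 0.09, adjusted p = 5.5e-12) and Tnfrsf1a, the main TNF receptor (1.15 ± 0.07, adjusted p = 2.0e-10) were higher in infiltrating cells than in blood.

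Of 17 Notch, amyloid and adhesion substrates 1 rose and 1 fell in infiltrating cells (median 0.26) and none was called in blood (median 0.02). Jag1, a Notch ligand, rose by 2.75 ± 0.27 (adjusted p = 1.1e-05) and was at least 8.98-fold above blood in Cy5. The reference in Cy3 was well above background for Jag1 on 5 infiltrating-cell arrays and on 1 blood array. Prnp, the prion protein, fell by 1.63 ± 0.14 (adjusted p = 4.5e-06) but was 0.21 with median centring. Of 5 matrix substrates of ADAMTS proteases 3 rose in infiltrating cells and 0 fell (median 1.41), and none was called in blood (median −0.10). These were Nid1 (2.80 ± 0.18, adjusted p = 5.2e-07), Dcn, decorin (2.29 ± 0.08, adjusted p = 4.2e-09), and Col1a1 (1.41 ± 0.07, adjusted p = 1.2e-07). The last 2 are also on the fibroblast list, and Dcn made up nearly all of its sum in infiltrating cells, given above.

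All 3 tested platelet substrates fell in infiltrating cells (median −3.37), with Gp1ba at −5.10 ± 0.38 (adjusted p = 1.8e-06) and Gp1bb at −3.37 ± 0.34 (adjusted p = 1.5e-05). Platelet markers summed to 19590 to 34380 units in infiltrating cells, against 473700 to 791000 in blood; their part was not tested. In blood Gp5 rose by 1.19 ± 0.06 (adjusted p = 2.2e-09). Of 11 integrins that bind disintegrin domains 0 rose and 3 fell in infiltrating cells (median −0.27), and 1 rose and 0 fell in blood (median 0.04). Itga6 fell by 1.66 ± 0.12 (adjusted p = 9.8e-07) but was 0.35 with median centring. Itgb7 fell by 1.36 ± 0.15 (adjusted p = 2.9e-05) and Itga4 by 1.17 ± 0.14 (adjusted p = 4.4e-05), but under median centring these were 0.72 and 0.76 and under spike-in centring 0.08 and 0.12. Itgb3, the platelet integrin chain, rose by 1.095 ± 0.06 in blood (adjusted p = 2.6e-09).

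Set directly against blood, infiltrating cells were lower for Tspan33 (−5.14 ± 0.09, adjusted p = 1.5e-18), Gp1ba (−4.98 ± 0.41, adjusted p = 5.8e-09) and Gp1bb (−3.44 ± 0.36, adjusted p = 1.6e-07). Fcer2a (−2.76 ± 0.35, adjusted p = 1.8e-06) and Tspan17 (−2.12 ± 0.09, adjusted p = 4.9e-13) were lower too, Tspan17 at 0.57 when arrays were centred on their median. Itgb5, an integrin beta chain, was −1.15 ± 0.10 (adjusted p = 1.1e-08) but 1.58 under median and 0.91 under spike-in centring, and Prnp (−1.71 ± 0.17, adjusted p = 6.0e-08) and Itga6 (−1.94 ± 0.13, adjusted p = 3.4e-10) were 0.78 and 0.72 under median centring. Higher were Nid1 (2.91 ± 0.20, adjusted p = 3.6e-10), Dcn (2.14 ± 0.17, adjusted p = 4.2e-09), Timp2 (2.10 ± 0.11, adjusted p = 1.7e-11) and Col1a1 (1.51 ± 0.13, adjusted p = 8.4e-09).

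**Figure D5:**
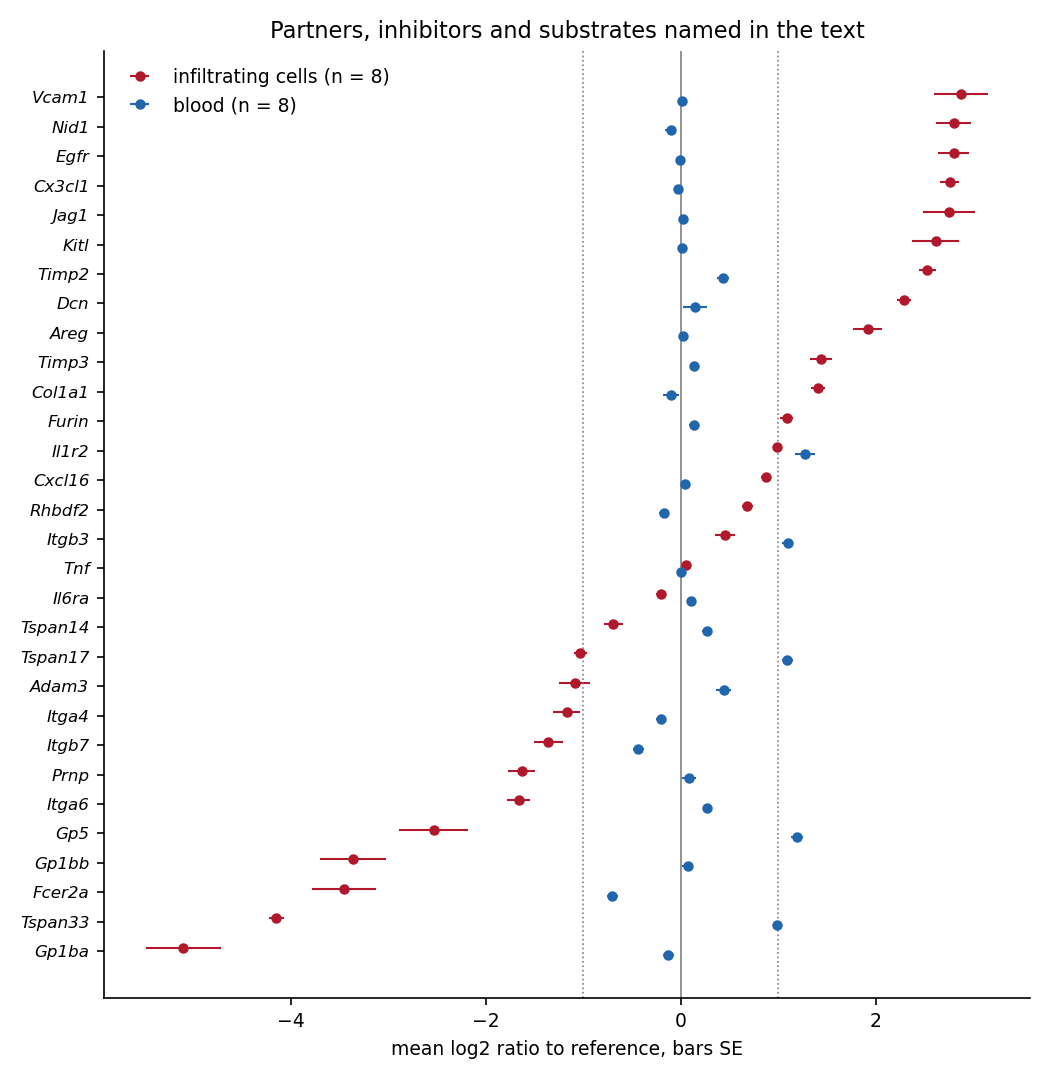
Mean log2 ratio to the reference with SE (n = 8 samples each) for partners, inhibitors and substrates, infiltrating cells in red above blood in blue for each gene. Dotted lines mark 2-fold; Vcam1, Nid1, Egfr, Cx3cl1 and Jag1 lie highest in infiltrating cells and Gp1ba, Tspan33 and Fcer2a lowest, while blood values stay between −0.70 and 1.27.

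Other members of the family were rarely called. Of 8 tested ADAM genes outside the 8 above, 0 rose and 1 fell in infiltrating cells (median −0.09), and none was called in blood (median 0.02). The one was Adam3, a sperm surface protein in the mouse, which fell by 1.09 ± 0.16 (adjusted p = 0.00021). Of 8 tested ADAMTS and ADAMTS-like genes none was called in either group (medians 0.10 in infiltrating cells and 0.08 in blood), and Adamts2, a procollagen processing enzyme, had the largest value among those named here, 0.69 ± 0.10 in infiltrating cells. Between infiltrating cells and blood 0 of these ADAM genes were higher and 1 lower, Adam3 (−1.53 ± 0.19, adjusted p = 1.6e-06, but 0.083 under median centring), and none was called among the ADAMTS genes.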

How the data were processed

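Blood and a tumour fraction were measured on 2-colour Agilent mouse arrays, 1 per sample. The deposited scanner files hold median pixel intensities of spot and local background in both channels, and a log10 ratio of Cy5 over Cy3 that the program had background-subtracted and dye-normalised, per the file headers. These name Agilent Feature Extraction, version 10.5.1.1, whereas the submitters' processing notes give 9.1.3.1. The deposited values per array were compared with these log10 ratios and differed by 0 on all 16 arrays.

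From these intensities, normexp (offset 50) served for background and loess for normalising log2 ratios in limma 3.58.1 (R 4.3.3, with data.table at version 1.17.8). Control spots had weight 0, and 87 to 153 outlier spots per array were left out. Of 41174 probes, 23374 got a symbol by matching the accession in the files to RefSeq genes of GRCm38.p6, and the rest were not named. Tested probes were those well above background in Cy5 on 4 or more of a group's 8 arrays, or in Cy3 on 8 or more of the 16. This left 26510 probes and 12312 genes, each gene represented by its brightest probe.

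Pathway genes were tested with limma (lmFit, eBayes), each group against 0 and the groups against each other on all 16 arrays, with Benjamini-Hochberg adjustment over every tested probe; calls needed an adjusted p under 0.05 and a change of 2-fold or more. The fits were tested on simulated data. Because the samples are not stated to come from separate mice, p-values measure the spread between these samples. The reference is 1 control sample, so a ratio against 0 leaves out the spread of untreated blood, and with no dyes swapped a gene's dye bias stays in its ratio. Slides were 4, with 2 per group and 4 arrays each, and slide was run as a random block. Each slide held arrays of 1 group only and was scanned on its own. The block therefore cannot separate slide or scan from group. The number of arrays limits the precision.

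The 8 genes and the 10 lists (152 genes) were chosen with earlier results of these data known, so the 8 genes carry no p. Named from each list were up to 3 called genes per direction, by size, among those detected on 4 or more arrays of each side, plus Rhbdf2, Timp3, Tspan14, Tspan33, Tnf, Il6ra, Cx3cl1 and Cxcl16 whatever their values; Vcan had no named probe, and 1 gene that the rule names is not reported here. Alternatives were centring by a constant per array without loess, the background correction and the deposited ratios. Further ones were the filter on dim probes, the probe of a gene, the slide, a block for the sample number and leaving out each sample.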

Additional observations from a re-analysis of the deposited data

Results flagged for a closer look

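Of 32 sets of 8 values of the 8 genes (log2 ratio and log2 processed Cy5 signal in each group), 2 held a sample far from the others. By chance about 1 in 20 such sets is picked out. For Adamdec1, infiltrating-cell sample 896 had a log2 Cy5 signal of 15.89, with the next highest sample at 13.95, and its net Cy3 signal was also the highest of the 8. For Adam15, infiltrating-cell sample 889 had a log2 Cy5 signal of 10.62, with the next lowest sample at 11.25.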

How the results depend on the processing

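Both centrings leave out loess, and the cause of the shifts between settings was not tested. Pathway genes called in infiltrating cells (30) were 67 with median centring, 54 with spike-in centring and 64 with the deposited ratios. In blood (4) they were 2 with no background correction and 9 with the deposited ratios, and 6 with either centring, all lower and including none of the 4. In the difference (27) they were 66, 59 and 75 with median centring, spike-in centring and the deposited ratios, and 11 when only the 33 genes well above background in both channels on all arrays were tested. Leaving out 1 sample gave 28 to 31 in infiltrating cells, 4 to 5 in blood and 27 to 30 in the difference. Directions turned with median centring for Prnp (0.21 in infiltrating cells, 0.78 in the difference), Itga6 (0.35 and 0.72), Itgb7 (0.72), Itga4 (0.76), Tspan17 (1.07 and 0.57), Itgb5 (1.58 in the difference) and Adam3 (0.083 in the difference). With spike-in centring they turned for Itgb7 (0.082), Itga4 (0.12) and Tspan17 (0.43) in infiltrating cells, and for Prnp (0.12), Itga6 (0.062) and Itgb5 (0.91) in the difference. Of the 8 proteases, 7 were past both thresholds in infiltrating cells under median and 6 under spike-in centring, where 7259 and 5755 of all 12312 genes were, and none was in blood with either, where 894 and 811 genes were. Adamts1 was not past them in infiltrating cells with no background correction, on the second slide alone or with the median over its probes. With the sample number as a replicate block the difference gave 27 calls. Same-numbered samples of the groups correlated at −0.17 to 0.20 in their deviations from the group means, 2 of 8 correlated best with their own number, and the numbers were not taken as pairs. Slide as a random block gave 30, 4 and 27 calls in infiltrating cells, blood and the difference. With 4 arrays on every slide and each number in both groups, neither block moves the mean log2 values. Calls could change only through the adjusted p, so the same counts say little about slide or number. Subtraction with a floor left probes at 1 value on all arrays untested. Blood signals under background limit what can be said of Adamts1, Adam10 and Adam15.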
